A study of Homo sapiens with 16 samples.

Results

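The genes described here are 60 DNA polymerase, replication fork and translesion synthesis genes, all of them among the 20163 protein-coding genes of GENCODE 44 placed on GRCh37 (hg19). They were chosen by name, for their function, with earlier results of these data known. A gene was counted as having a start peak when the summit of a ChIP-Seq peak lay within 1 kb of the 5′ end of its gene record, and peaks with the summit elsewhere inside the gene were counted separately. The peaks come from 3 lists in HEK293T, a human embryonic kidney cell line. One list stands for the wild-type line, one for POLK-/- cells, which lack the translesion polymerase Pol κ, and one for DDX23-/- cells, which lack a helicase that takes part in splicing. The antibody is labelled as Polk for every genotype, but the protocol mentions anti-Flag beads and the labels mention no Flag-tagged protein for these lines, so the protein enriched by the pulldown is uncertain. The titles of these libraries begin with R_, a prefix that neither the labels nor the methods explain, so what the peaks measure is not settled by the sources used here. Whether either knockout line is a single clone is not stated. It is also uncertain which library of its genotype gave the wild-type list and which gave the DDX23-/- list, because their peaks carry another library number than the sample.

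With 1 list per genotype there is no replicate and no test between genotypes, and every difference below compares 3 lists. The wild-type list holds 1468 peaks, the POLK-/- list 2451 and the DDX23-/- list 5945. Each peak carries a fold, the ratio of scaled summit fragments to local background with 1 added to each. The fragments and background behind each fold were recovered from the deposited fold and p, and the genome-wide background came to 0.573 (wild-type), 1.25 (POLK-/-) and 1.94 fragments (DDX23-/-). This background, which was used as the measure of depth, has the same order as the lengths of the lists. The weakest peak rests on 6, 10 and 14 fragments, respectively.

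Replication starts where ORC1 and CDC6, together with CDT1, load the MCM2 to MCM7 ring onto DNA. CDC45 and the GINS proteins turn this ring into the active helicase. Polymerase α with its primase lays primers, and polymerases ε and δ extend them on the leading and lagging strands while held by the PCNA clamp, which the RFC complex loads. When a lesion stops the fork, RAD18 with UBE2A or UBE2B ubiquitinates PCNA, and translesion polymerases such as Pol κ, Pol η, Pol ι and REV1 insert a nucleotide across the damage. USP1 removes the ubiquitin again. Many genes of this program are transcribed at the G1/S transition under E2F factors.

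Start peaks were found at more of these genes than at protein-coding genes in general, in each of the 3 lists. In the wild-type list 9 of 60 genes (15%, exact binomial 95% confidence interval 7.10% to 26.6%) had a start peak, against 5.56% of all protein-coding genes. The POLK-/- list had 19 of 60 (31.7%, 20.3% to 45.0%) against 9.91%, and the DDX23-/- list 41 of 60 (68.3%, 55.0% to 79.7%) against 24.5%. The intervals treat genes as independent draws and cover no spread between cultures. All protein-coding genes include those silent in these cells, and genes were not matched for expression. A further 64 replication genes, among them ORC2 to ORC6, CDC7, DBF4, TOPBP1, ATR, RRM1 and TYMS, had start peaks in 7, 13 and 31 cases, that is in 10.9%, 20.3% and 48.4%.

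The counts in the knockout lists depended on how many peaks were taken. With the 1468 peaks of smallest p taken from each list, 12 of 60 genes (20%) had a start peak in the POLK-/- list and 12 of 60 in the DDX23-/- list, against 5.68% and 5.61% of all protein-coding genes, and beside the 9 of 60 of the wild-type list. With all peaks, the 9 genes with a wild-type start peak each had one in the DDX23-/- list, as had the 19 with a POLK-/- start peak. Over all protein-coding genes the same held for 97.1% of those with a wild-type and 95.8% of those with a POLK-/- start peak, so the 60 genes were near the general share. Start peaks in all 3 lists were found at 7 genes, in the wild-type and DDX23-/- lists at 2, in the POLK-/- and DDX23-/- lists at 12, in the DDX23-/- list alone at 20 and in no list at 19. Of the 41 genes with a DDX23-/- start peak, 78.0% had none in the wild-type list, against 77.9% over all protein-coding genes. None in the POLK-/- list had 53.7%, against 61.2%. Of the 19 genes with a POLK-/- start peak, 63.2% had none in the wild-type list, against 57.2%.

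**Figure D1:**
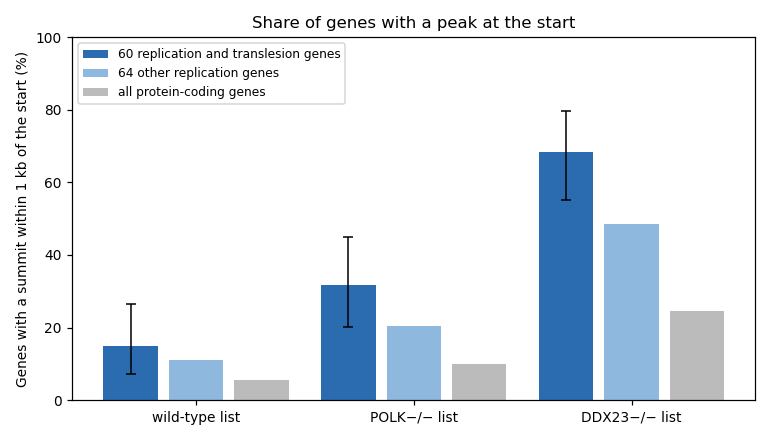
Share of genes (%) with a summit within 1 kb of the start in the 3 peak lists, for the 60 genes described here, 64 other replication genes and all 20163 protein-coding genes; bars on the first column are exact binomial 95% intervals. The 60 genes stand at 15%, 31.7% and 68.3%, each above the 5.56%, 9.91% and 24.5% of all protein-coding genes.

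The 5′ end of a gene record can lie far from the start of the canonical transcript, the one GENCODE marks as representative. For UBE2A the canonical transcript starts 99761 bp downstream of the 5′ end of the record, for POLD3 98731 bp, for GINS1 16665 bp, for MAD2L2 10663 bp and for GINS2 1119 bp. These 5 genes are the ones whose peaks lay inside the gene with the summit 146 bp or less from the canonical start, and RPA3 was the only other gene with a peak inside it. Counting peaks at the start or inside the gene gave 10 of 60 genes in the wild-type list (6.98% of all protein-coding genes), 22 for POLK-/- (12.1%) and 47 for DDX23-/- (29.5%). Counting from canonical starts, a choice made after the values were seen, gave 10 genes (5.83% of all), 22 (10.4%) and 45 (26.1%). PCNA was counted from its record and not from its canonical start. Its only peak, in the DDX23-/- list, lay 55 bp downstream of the record's 5′ end but at -6613 bp from the canonical start, negative values being upstream, and at -308 bp from the start of CDS2 on the opposite strand.

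POLK, the gene knocked out in one of the lines, had a start peak in the wild-type and DDX23-/- lists and none in the POLK-/- list. The wild-type peak had a fold of 6.36 on 9 fragments, with the summit at -191 bp from the start of the gene record (chr5:74807670-74905816, plus strand). The DDX23-/- peak had a fold of 6.71 on 29 fragments, with the summit at -274 bp. Both summits lie upstream of POLK and 484 and 567 bp inside CERT1, the ceramide transfer protein gene, which starts on the opposite strand. Scaled by the genome-wide backgrounds, the 9 and 29 fragments correspond to 19.6 and 18.7 fragments at the depth of the POLK-/- library. The weakest peak there has 10 and the median peak 27. Before scaling, the 9 fragments have a Poisson 95% interval of 4.12 to 17.1, so whether a peak should have been called cannot be said. The wild-type peak, on 9 fragments, had an enrichment over background of 15.7 with a Poisson 95% interval of 7.18 to 29.8, and the DDX23-/- peak 9.57 (6.41 to 13.7), so the intervals overlap. Because the summits lie upstream of the gene, the peaks are no check of the knockout.

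POLE, the catalytic subunit of polymerase ε, was the other gene of the 60 with a wild-type start peak and none in the POLK-/- list. Such a lack was no rarity, since 2 of 9 of these genes compare with 23.8% of the 1122 protein-coding genes with a wild-type start peak. Its wild-type fold was 6.85 on 12 fragments and its DDX23-/- fold 9.24 on 32 fragments, with summits 63 and 31 bp downstream of the start. These correspond to 26.2 and 20.6 fragments at the POLK-/- depth. The summits lay at -274 and -242 bp from the start of PXMP2, a peroxisomal membrane protein gene on the opposite strand, so peaks of the 2 genes cannot be told apart.

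Start peaks in all 3 lists were found at POLG, HLTF, MCM6, POLE2, PRIMPOL, TIMELESS and POLD2, and UBE2A joined them from its canonical start. POLG encodes the mitochondrial replicative polymerase and had the strongest peak of the 60 genes in every list. Its fold was 25.4 in wild-type, 71.3 in POLK-/- and 38.5 in DDX23-/- cells, on 117, 289 and 349 fragments. These peaks ranked at the 89.6th, 98.6th and 96.4th percentile of fold in their lists. The enrichment, the fragments at the summit divided by the local background, was 32.2 (Poisson 95% interval 26.6 to 38.6), 106 (94.5 to 119) and 46.0 (41.3 to 51.1), so that the 3 intervals do not overlap. They cover counting error at the summit only, and the local backgrounds themselves differed, at 3.64, 2.72 and 7.58 fragments.

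The POLG summits lay at -212, -229 and -202 bp from the gene. All 3 peaks hold a B box, found as the word GTTCGANNC, whose first base lies 45 bases after the first base of an A box, the arrangement of the internal promoter of tRNA genes transcribed by RNA polymerase III. In RefSeq the tRNA gene nearest to POLG on chromosome 15 is TRR-TCG1-1, an arginine tRNA gene. The summits lay 39 to 66 bp from the centre of the B box. POLG was the only one of the 60 genes with both boxes in a start peak. Among all protein-coding genes with a start peak, the peak held both boxes in 2.94% (wild-type), 1.75% (POLK-/-) and 0.892% (DDX23-/-) of cases. The lncRNA POLG-DT starts on the opposite strand 20, 37 and 10 bp before the summits, so that the peak cannot be assigned to POLG itself. The search for these boxes was added after the values were seen.

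HLTF, a ubiquitin ligase that extends the ubiquitin chain on PCNA, had folds of 11.0, 17.1 and 25.4, here and below in the order wild-type, POLK-/- and DDX23-/-, with summits 59, 75 and 41 bp downstream of its start. The enrichment was 16.5 (11.1 to 23.5), 21.2 (17.5 to 25.4) and 37.6 (31.0 to 45.2), and the DDX23-/- interval lay above both others. The intervals cover counting error at the summit only. The peaks rest on 30, 115 and 114 fragments, not scaled for depth, over local backgrounds of 1.82, 5.43 and 3.03. The genome-wide backgrounds differ as well, at 0.573, 1.25 and 1.94 fragments. MCM6, a subunit of the helicase ring, had folds of 7.68, 7.42 and 12.9, with all summits 12 to 36 bp downstream of the start. Its enrichment was 13.2 (7.54 to 21.4), 10.5 (7.06 to 14.9) and 17.6 (13.7 to 22.3), with overlapping intervals.

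TIMELESS, a subunit of the fork protection complex, had folds of 5.04, 6.71 and 12.1. Its summits stood 2 and 1 bp downstream of the start in the knockout lists and 177 bp downstream, in intron 1, in the wild-type list. The intervals of the enrichment overlapped in each pair of lists. PRIMPOL, which reprimes DNA synthesis past lesions, had folds of 6.23, 13.4 and 15.5, with summits at -269, -426 and -316 bp. The wild-type PRIMPOL peak rests on 9 fragments, and its interval of enrichment, 6.79 to 28.2, includes the 25.8 and 26.8 of the knockout lists.

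POLD2, the accessory subunit of polymerase δ, had folds of 5.08, 8.68 and 21.1. Its summits lay 795 to 856 bp downstream of the record's 5′ end and 46 bp or less from the canonical start. The enrichment in the DDX23-/- list, 32.9 (26.3 to 40.7), lay above the 9.30 (4.25 to 17.7) of the wild-type list and the 12.5 (8.67 to 17.5) of the POLK-/- list. POLE2, the second subunit of polymerase ε, had folds of 6.50, 3.73 and 12.1. Its enrichment in the POLK-/- list, 4.42 (2.83 to 6.57), lay below the intervals of both other lists, 6.94 to 26.6 and 14.6 to 27.3. The local background of POLE2 there, 5.43 fragments, was above the 0.691 and 2.08 of the others. For POLD2 and POLE2, too, the intervals cover counting error at the summit only and take the local background as fixed. Differences beyond counting error are therefore not shown. UBE2A, a ubiquitin-conjugating enzyme that works with RAD18, had folds of 3.88, 7.94 and 11.5, with summits at -93, -129 and -26 bp from its canonical start.

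**Figure D2:**
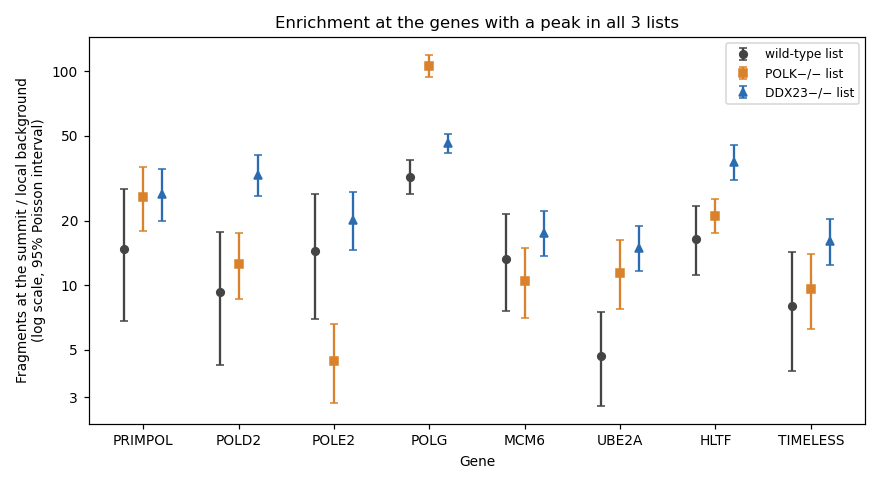
Enrichment (fragments at the summit divided by local background, log scale) at the 8 genes with a peak in all 3 lists, with Poisson 95% intervals for the fragments. POLG stands highest in the POLK-/- list at 106, whereas at the other genes shown the DDX23-/- value is the highest of the 3.

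The sequences upstream of the genes with the strongest wild-type start peaks are printed here to show what lies beside the summits, as read from GRCh37. Only the POLG window contains the summits. Those of POLK lie upstream of its window, and those of HLTF, MCM6 and POLE downstream of theirs. POLE2 is left out because annotated UTRs cover the window. For POLG the plus strand of chr15:89878224-89878413 is given, with the A box and the B box in capitals. The others are on the strand of the gene and end 1 to 47 bases before the canonical start, and are HLTF (chr3:148804342-148804520, minus), MCM6 (chr2:136634014-136634213, minus), POLE (chr12:133263963-133264128, minus) and POLK (chr5:74807516-74807669, plus). Their capitals mark E2F words, CHR words and CCAAT boxes on either strand.
POLG: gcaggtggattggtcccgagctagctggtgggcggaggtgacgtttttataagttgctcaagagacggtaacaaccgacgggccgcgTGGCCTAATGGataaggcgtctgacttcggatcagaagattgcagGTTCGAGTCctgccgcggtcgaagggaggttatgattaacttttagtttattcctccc
HLTF: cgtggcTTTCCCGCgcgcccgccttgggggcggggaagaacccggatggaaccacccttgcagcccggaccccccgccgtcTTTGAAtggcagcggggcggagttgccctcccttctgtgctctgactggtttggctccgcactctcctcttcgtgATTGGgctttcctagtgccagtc
MCM6: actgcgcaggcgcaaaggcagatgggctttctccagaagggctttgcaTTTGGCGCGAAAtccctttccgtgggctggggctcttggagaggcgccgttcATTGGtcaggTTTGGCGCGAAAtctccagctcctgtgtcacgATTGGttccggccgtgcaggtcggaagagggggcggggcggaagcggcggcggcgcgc
POLE: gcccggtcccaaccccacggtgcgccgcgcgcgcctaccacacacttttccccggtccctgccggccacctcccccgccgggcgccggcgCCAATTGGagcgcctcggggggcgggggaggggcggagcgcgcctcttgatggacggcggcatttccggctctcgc
POLK: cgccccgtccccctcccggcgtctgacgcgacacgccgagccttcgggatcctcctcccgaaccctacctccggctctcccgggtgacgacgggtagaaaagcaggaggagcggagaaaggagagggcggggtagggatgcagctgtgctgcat

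The MCM6 window holds an E2F word on both strands at 2 places, beginning at -152 and -90 from the start, and CCAAT boxes at -100 and -58. HLTF holds an E2F word at -194, a CHR word at -119 and a CCAAT box at -44. The POLE window shows overlapping CCAAT boxes on opposite strands. The POLK window, which does not contain the summits, shows none of the words that were marked. GC boxes were not marked.

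Over the 60 genes, an E2F word (TTTCCCGC, TTTCGCGC, TTTGCCGC or TTTGGCGC, either strand) stood between 250 bases before and 50 after the canonical start in 24 genes (40%), against 4.33% of all protein-coding genes. It was found at MCM2 to MCM7, at GINS1, GINS2 and GINS3, at CDC6 and CDT1, and at POLA1, POLA2, POLD1, POLD3, POLE, POLE2 and POLE4, among others. It stood at 19 of the 45 genes with a canonical start peak in the DDX23-/- list and at 5 of the 15 without. Within 100 bp of the summits, an E2F word was present at 4 of 9 start peaks in the wild-type list, 2 of 19 in the POLK-/- list and 9 of 41 in the DDX23-/- list, against 3.92%, 4.70% and 4.46% of all start peaks at protein-coding genes.

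A CCAAT box (CCAAT, a short and common word) was present at 30 of 60 genes, against 35.9% of all, and the GC box GGGCGG at 48 of 60, against 60.9%. The CHR words TTTGAA or TTCGAA were present at 6 of 60 (12.9% of all), the ETS word CCGGAAGT at 7 (6.09%) and the NRF1 word GCGCATGC at 4 (4.26%). TATAAA was present at 3 (9.80%), the YY1 word AAGATGGCG at 1 (2.81%) and the CRE word TGACGTCA at 4 (2.68%). All protein-coding genes with a canonical start peak in the DDX23-/- list had the GC box in 77.7%, the CCAAT box in 40.9% and the E2F word in 7.01%. Their shares were 11.8% for ETS, 10.1% for CHR, 7.58% for NRF1, 6.19% for YY1, 3.85% for CRE and 3.83% for TATAAA. The start of a gene on the opposite strand lay within 1 kb at 23 of 60 genes (38.3%), against 26.5% of all protein-coding genes and 46.2% of those with a canonical start peak in the DDX23-/- list. The median GC content of the windows around the canonical start was 65.7% at the 60 genes, 63.3% at all genes and 66.3% at those with a canonical start peak in the DDX23-/- list.

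By function, the translesion polymerases had start peaks at 2 of 7 genes in the wild-type list (POLK and PRIMPOL), 2 of 7 in the POLK-/- list (PRIMPOL and POLI) and 5 of 7 in the DDX23-/- list, against 5.56%, 9.91% and 24.5% of all protein-coding genes. POLI, which encodes Pol ι, had enrichments in the knockout lists of 7.85 (5.37 to 11.1) and 24.2 (17.8 to 32.2). The intervals take the local backgrounds, 4.07 and 1.94 fragments, as fixed and cover counting error at the summit only. POLH, which encodes Pol η, had a DDX23-/- peak of fold 3.38 at the 0.757th percentile of its list, 25 bp downstream of the start, and at -172 bp from the start of XPO5 on the opposite strand. REV3L, the catalytic subunit of Pol ζ, had a DDX23-/- peak of fold 4.01 at -478 bp. MAD2L2, its partner REV7, had one of fold 4.14, 146 bp downstream of the canonical start. REV1 had no peak in any list.

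The replicative polymerases differed among their subunits. The primase genes PRIM1 and PRIM2 had no peak, whereas POLA1 had a DDX23-/- peak of fold 9.35 and POLA2 one of 3.23, which rests on 23 fragments over a background of 6.06. Of polymerase δ, POLD3 had folds of 9.17 in POLK-/- and 23.7 in DDX23-/- cells, with summits 34 and 74 bp upstream of the canonical start. POLD1, the catalytic subunit, and POLD4 had none. Of polymerase ε, POLE3 had folds of 4.35 and 4.95 in the knockout lists and POLE4 had none.

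The repair and mitochondrial polymerases had DDX23-/- start peaks in 5 of 5 cases, against 24.5% of all protein-coding genes. Besides POLG these were POLB, the base excision repair polymerase, at a fold of 8.69 after 6.65 in the POLK-/- list. POLQ, the polymerase of theta-mediated end joining, had 5.93, POLM 5.21 and POLL 4.69 in the DDX23-/- list only. POLQ rests on 19 fragments.

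At the clamp and its loader, RFC2 had folds of 7.96 and 16.7 in the knockout lists. PCNA and RFC4 had DDX23-/- peaks of 5.35 and 5.93 on 17 and 19 fragments, whereas RFC1, RFC3 and RFC5 had no peak. RPA1, the large subunit of the single-strand binding protein, had folds of 7.83 and 10.9 in the knockout lists. RPA2 had 5.03 in the DDX23-/- list. The RPA3 peak, of fold 4.76, lay in exon 5 in the UTR, 78103 bp from the start and at -207 bp from that of UMAD1 on the opposite strand.

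The helicase genes had start peaks at 1 of 12 genes in the wild-type list, 5 of 12 in the POLK-/- list and 9 of 12 in the DDX23-/- list, against 5.56%, 9.91% and 24.5% of all protein-coding genes. From canonical starts the last count was 11 of 12, against 26.1%. Besides MCM6, the largest DDX23-/- folds were 17.2 at MCM5, 17.1 at MCM10 and 11.5 at MCM4. MCM5 stood on 101 fragments, and its fold in the POLK-/- list was 8.02. MCM10, which helps to activate the helicase, had 8.48 there. MCM4 carried peaks at 2 places in both knockout lists, one on the side of PRKDC and one near its canonical start. MCM2 had folds of 5.49 and 3.63, and its POLK-/- summit, at -331 bp, was nearer to the start of TPRA1.

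CDC45 had a DDX23-/- fold of 9.66, with the summit 24 bp inside UFD1, and MCM3, GINS4 and MCM7 had 7.49, 7.32 and 5.33. GINS1 had 4.47 and 4.78 in the knockout lists and GINS2 had 6.71 in the DDX23-/- list. GINS3 was the helicase gene with no peak in any list.

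Of the licensing genes, 1 of 3 had a start peak, in the DDX23-/- list, where 24.5% of all protein-coding genes had one. CDC6 had a fold of 6.19, 66 bp downstream of its start, and ORC1 and CDT1 had none. Of the genes that complete Okazaki fragments, the flap nuclease FEN1 had folds of 5.90 and 9.01 in the knockout lists and the ligase LIG1 had 5.30 in the DDX23-/- list. The FEN1 summits lay at -387 and -287 bp, nearer to the starts of MIR611 and TMEM258.

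Among the regulators of PCNA ubiquitination other than HLTF and UBE2A, DDX23-/- peaks of fold 7.37, 6.27 and 5.64 were found at USP1, the ligase SHPRH and UBE2B. RAD18 had no peak in any list. The fork proteins CLSPN and WDHD1 had folds of 12.5 and 15.7 in DDX23-/- and 4.48 and 9.54 in the POLK-/- list. TOP1, which relieves supercoils ahead of the fork, had 9.47 in the DDX23-/- list, at -351 bp.

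**Figure D3:**
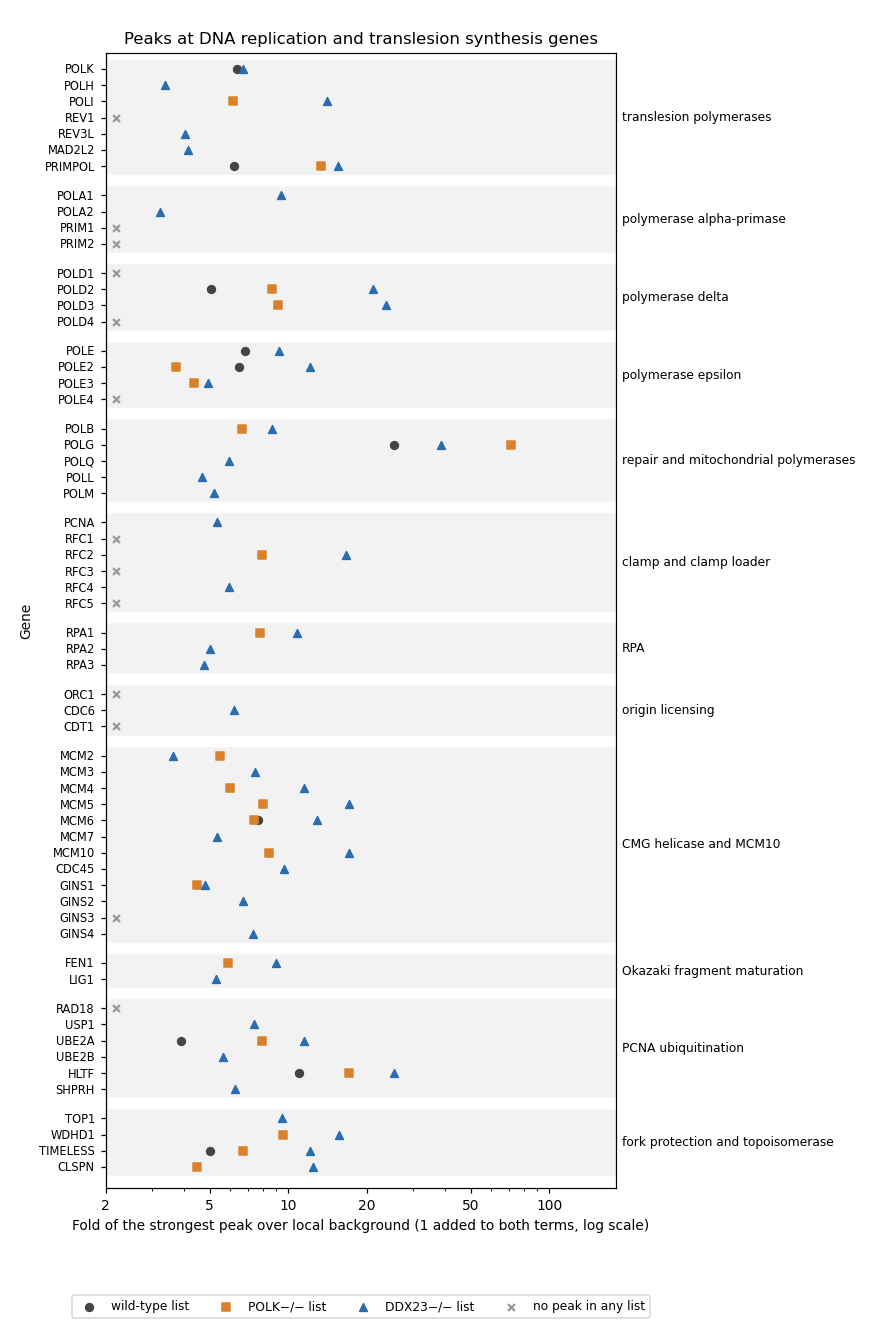
Fold of the strongest peak at the start or inside each of the 60 genes (log scale), grouped by function; crosses mark the 13 genes with no peak in any list. POLG lies highest in all 3 lists, and most other folds fall between 3 and 25.

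The strength of the start peaks was set beside that of all genes with one. The median fold of the strongest start peak was 6.50 (wild-type), 7.42 (POLK-/-) and 8.69 (DDX23-/-), against 7.23, 6.94 and 7.38 over all protein-coding genes with a start peak. With the 1468 peaks of smallest p the order turned for POLK-/-, at 8.25 against 8.73, and was kept for DDX23-/-, at 16.2 against 14.6. The ratio of enrichments in the DDX23-/- list to the wild-type list had a median of 1.43 over the 9 genes with both, and 8 of 9 were above 1, against a median of 1.15 and 60.2% above 1 over 1090 protein-coding genes. For DDX23-/- to POLK-/- it was 1.68 over 19 genes, of which 17 were above 1, against 1.44 and 73.8% above 1 over 1915 genes. For POLK-/- to wild-type it was 1.28 over 7 genes, of which 5 were above 1, against 0.848 and 39.6% above 1 over 855 genes. These ratios come from single libraries and share them, and depth differs between the lists as given above.

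Absent peaks can be read only as far as depth allows. Of the 47 genes with a DDX23-/- peak at the start or inside, 37 (78.7%) had no wild-type peak, against 77.3% over all protein-coding genes, and 25 (53.2%) had no POLK-/- peak, against 61.0%. For 8 of the 37 genes, 5.01 to 5.90 fragments were expected at the wild-type depth, under the 6 of the weakest peak there, so that a peak was less likely to be called. Over the 37 genes the median expected was 10.6 and the highest 29.8, at MCM5, followed by 26.5 at POLD3, 21.2 at RFC2 and 20.6 at WDHD1. For the 25 genes without a POLK-/- peak the expected numbers began at 10.9 and had a median of 17.4, and the highest were 29.0 at CDC45 and 27.0 at RPA2. The weakest POLK-/- peak has 10 fragments but the median peak 27. In the wild-type list the weakest has 6 and the median peak 14, above the median expected number of 10.6. In either list an expected number above that of the weakest peak need not give a call, so depth may limit more than the 8 genes. All expected numbers come from genes with a called peak, which favours high counts. A local background above the genome-wide level raises the number a call needs.

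Summits were counted as start peaks only within 1 kb, on either side. From the record's 5′ end the median positions were 59, -13 and 25 bp, against 16, 6 and 9 bp over all protein-coding genes with a start peak. Within 100 bp of the record's 5′ end lay 33.3% of the wild-type, 42.1% of the POLK-/- and 51.2% of the DDX23-/- summits, against 47.1%, 46.5% and 47.5% over all protein-coding genes. From canonical starts these shares were 6 of 10 (60%), 11 of 22 (50%) and 28 of 45 (62.2%), against 57.2%, 55.0% and 57.5%, so that the 60 genes lay above the general share in some lists and below it in others. Of the 50 DDX23-/- peaks at these genes, 29 had the summit upstream of the canonical transcript, 14 in the UTR of exon 1, 3 in the coding part of exon 1, 3 in intron 1 and 1 in a later exon. Where a gene had a peak in 2 lists, the strongest summits lay a median of 30.5 bp apart between wild-type and DDX23-/- (10 genes), 43.5 bp between POLK-/- and DDX23-/- (22 genes) and 48.5 bp between wild-type and POLK-/- (8 genes). The peaks overlapped in every such pair but 1, at MCM4, whose strongest peaks in the knockout lists were at its 2 different places.

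**Figure D4:**
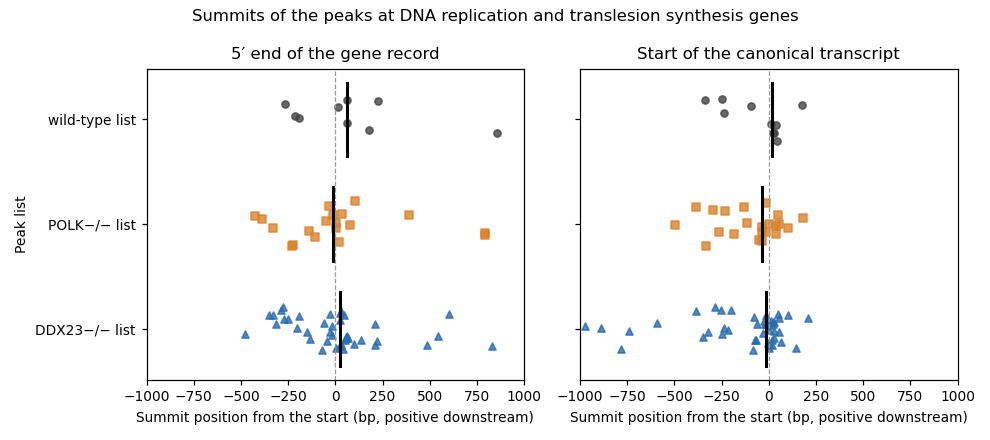
Summit position (bp, positive downstream) of the strongest peak within 1 kb of the start at the 60 genes, measured from the 5′ end of the gene record (left) and from the canonical transcript (right), by peak list; black bars are medians. From canonical starts the medians are 16, -36 and -15 bp, and 6 of 10, 11 of 22 and 28 of 45 summits lie within 100 bp.

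Many of these peaks had the start of a neighboring gene close by. In the DDX23-/- list, 21 of the 47 genes with a peak had the start of another gene within 1 kb of a summit, a protein-coding one at 17. At CDC45, FEN1, LIG1, MCM4, POLG, RPA3 and WDHD1 the strongest summit was nearer to that other start than to any start used for the gene itself. At these genes the signal of the gene and of its neighbor cannot be told apart. Of the 45 described genes with a canonical start peak in the DDX23-/- list, 42.2% had an opposite-strand gene start within 1 kb. The share was 46.2% over all protein-coding genes with such a peak, so close starts were not particular to the genes described here.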

How the data were processed

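ChIP-Seq peaks of 3 samples, 1 per genotype, were analysed; the other samples were not analysed here. For each peak the authors deposited coordinates, a fold (a ratio), the −log10 of its p-value and q-value, and a score of 10 times the latter. Bowtie2, MACS2, bedtools and deepTools are named in the submitters' processing notes; the threshold, control and pooling are not given in the sources used here. The files' positions fit hg19. Fragments and background were solved from fold and p by the formulas of MACS2 for 1468 of 1468, 2451 of 2451 and 5945 of 5945 peaks, which was checked on simulated data; the total number of reads is unknown.

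Summits were assigned to GENCODE 44 genes with pandas 2.3.3, scipy 1.17.1 and pysam 0.24.0, and shares have exact (Clopper-Pearson) intervals. Genotypes were not tested, since each has 1 list. The genes and gene lists were chosen with earlier results of these data known. By rule, the genes named with values were POLK, those with start peaks in all 3 lists, those with a start peak in the wild-type list only or lacking one only in the DDX23-/- list (no gene met either), and those with a peak inside the gene. Genes without a peak were named without values. Values for POLE and for genes with start peaks in the knockout lists only were added after the data were seen. Promoter sequences were those of up to 6 named genes with the largest wild-type fold, to which POLE was added. The canonical starts, the fragment counts, the expected fragments, the ratios between lists, the shares of genes with peaks in both of a pair of lists, the neighbouring starts, the motifs and the A and B boxes were also added after the data were seen. The NRF1 word was shortened before motif counts were made.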

Additional observations from a re-analysis of the deposited data

How the results depend on the processing

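No paired analysis was possible because a single list per genotype was analysed, although sample numbers recur across genotypes, and no replicate could be left out for the same reason. For 12 results, 57 alternatives were computed (distances of 500 bp and 5 kb, any base of the peak, the start of any annotated transcript, a q of 1e-05 or less, equal numbers of peaks, and the canonical start, the last added after seeing the data). In 51 the value stayed within its 95% interval and in 6 it did not. The 51 include the equal-number alternatives of the wild-type list, which could only repeat the main values because that list is the shortest. The others reuse the same genes and lists, so the count is no independent check. Taking as many peaks from each list as the shortest holds gave 20% of genes with a start peak in both knockout lists, and 23.3% in both with peaks inside the gene added. It raised the median fold of the DDX23-/- start peaks to 16.2, against 14.6 over all protein-coding genes, since only stronger peaks remain. For POLK-/- it gave 8.25 against 8.73, the opposite order to that with all peaks. A q of 1e-05 or less lowered the share with a peak at the start or inside the gene in the DDX23-/- list to 63.3%. At that q, 10% of the genes had a wild-type start peak (3.76% to 20.5%), against 4.21% of all protein-coding genes, which lies inside the interval. Depth limits absent peaks, and wild-type peaks rest on as few as 6 fragments.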
